A study of Mus musculus with 24 samples.

Results

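Crk, Grb14, Lama2, Haus2, Nupr1l, Zfp781, Zfp784 and Lrrc51 were selected on their genotype pattern from 21368 genes with a named probe. In each of these 8 genes, all 3 Rap1 knockin (KI) mice lay on the same side of all 3 wild-type (WT) mice, in the same direction, in 3 of 4 tissues. Values were log2 of the array signal minus the 75th percentile of the array, taken from the probe of the gene with the highest mean over 24 arrays. Because the genes were chosen by their separation of the genotypes, the KI and WT values below are a description and carry no test. Of the 8 genes, 5 were higher in KI mice (Grb14, Lama2, Nupr1l, Zfp784 and Lrrc51) and 3 were lower (Crk, Haus2 and Zfp781).

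Transcripts were measured on arrays in 4 tissues (liver, brain, heart, skeletal muscle) from 6 females. The KI mice (A, B and C) carried the Rap1 I312R allele, which was made by CRISPR/Cas9 editing and then crossed back to C57BL6 mice (C57BL/6N in the study's methods), whereas D, E and F, the WT mice, carried no edited allele. Mice C and F were 14 months old and the others 15 months old, and every mouse gave all 4 tissues, so the tissues of a mouse are not independent samples. The allele is constitutive, so it is present in every cell type of a tissue, and the study's KI mice were homozygous with WT littermates as controls. The labels do not name the litter of any mouse.

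RAP1, encoded by Terf2ip, is a subunit of shelterin, the complex that coats the telomere repeat. It does not bind the repeat itself and is held there by TRF2, and it also occupies sites inside chromosomes and acts in transcription. The mutated residue is needed for binding to TRF2, so KI mice have RAP1 that is not held at telomeres. The selected genes encode proteins of unrelated families: signalling adaptors, a basement membrane chain, a spindle subunit, a stress-induced nuclear protein, zinc finger proteins and a leucine-rich repeat protein.

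Some arrays carried transcripts of another tissue. The mean level of 10 hepatocyte markers in the brain of KI mouse C was 3.69, against at most -2.04 in the other brains. The liver of KI mouse C stood 4.44 above the other livers for 10 skeletal muscle markers, and the muscle of KI mouse B stood 3.85 above the other muscles for 10 mammary epithelium markers. All 3 arrays were from KI mice, and values without them are given below for some of the genes, not for all. The share of probes well above background was between 49.4% and 68.4% per array, and no spot was saturated. For Terf2ip itself the genotypes overlapped in every tissue, with KI minus WT differences between -0.33 and -0.07 for the brighter probe and between -0.10 and 0.08 for the other, which overlapped in every tissue too.

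The promoters of 4 of the genes are shown because RAP1 is known for sites that hold the telomere repeat unit. Grb14 and Zfp781 were the genes among the 8 whose promoter held TTAGGG, and Nupr1l and Lrrc51 had the widest margin between genotypes. Each sequence is the 250 bases before the transcript start, 5′ to 3′ on the strand of the gene, from RefSeq on GRCm38.p6, with TTAGGG in capitals. They lie at chr2:65022767-65023016 (Grb14, minus strand), chr10:81930513-81930762 (Zfp781, minus strand), chr5:129908290-129908539 (Nupr1l, plus strand) and chr7:101921226-101921475 (Lrrc51, minus strand).
Grb14: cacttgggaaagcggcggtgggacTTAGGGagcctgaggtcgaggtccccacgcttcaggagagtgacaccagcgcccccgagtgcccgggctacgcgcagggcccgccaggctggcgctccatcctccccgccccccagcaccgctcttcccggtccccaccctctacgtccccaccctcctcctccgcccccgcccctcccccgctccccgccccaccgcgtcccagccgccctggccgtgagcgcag
Zfp781: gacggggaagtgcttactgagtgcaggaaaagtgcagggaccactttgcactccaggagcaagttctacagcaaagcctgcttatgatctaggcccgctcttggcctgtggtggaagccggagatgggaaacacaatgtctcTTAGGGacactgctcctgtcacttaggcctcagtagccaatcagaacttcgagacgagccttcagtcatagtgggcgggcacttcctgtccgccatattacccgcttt
Nupr1l: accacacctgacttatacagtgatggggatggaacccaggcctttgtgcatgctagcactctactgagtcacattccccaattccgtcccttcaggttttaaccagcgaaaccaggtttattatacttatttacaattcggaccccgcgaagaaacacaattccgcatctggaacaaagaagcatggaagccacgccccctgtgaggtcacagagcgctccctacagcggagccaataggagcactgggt
Lrrc51: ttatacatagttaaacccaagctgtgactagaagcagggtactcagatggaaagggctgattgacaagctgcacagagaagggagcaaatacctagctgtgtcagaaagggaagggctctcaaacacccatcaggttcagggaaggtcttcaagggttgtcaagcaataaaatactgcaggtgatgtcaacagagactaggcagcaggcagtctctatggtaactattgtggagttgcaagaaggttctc
All 8 genes were found in the promoter table, Haus2 with 2 entries. The motif TTAGGG was searched on both strands from 250 bases before to 50 bases after the start. It began 226 bases before the start of Grb14 and 108 bases before the start of Zfp781, in the forward direction each time, and was not found in the other entries. Among all genes in the table, 12.03% had the motif in this window, and the same unit repeated in tandem was found in 4 of 32851 promoters, none of them of the 8 genes. The promoter of Grb14 was 75.3% G and C with 30 CpG dinucleotides, and those of Lama2 and Lrrc51 held 1 and 3, against a median of 7 over all promoters. Array probes were not placed on these coordinates, because their design used another genome build.

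The 8 genes meeting the rule have to be read against how many genes separated the genotypes at all. In liver, KI lay above WT without overlap in 12.2% of 14092 genes tested and below in 7.5%. In brain the shares were 1.28% above and 1.57% below, in heart 1.8% and 3.22%, and in muscle 2.17% and 1.37%. Liver was thus the tissue in which a separation was most common, and 7 of the 8 genes counted liver among their 3 tissues, as 7 did brain, 4 heart and 6 muscle. Of 13844 genes tested in at least 3 tissues, 0.0433% (6 genes) were higher in KI in 3 tissues and 0.0217% (3 genes) lower. These 9 genes were the 8 described and Cyp26b1, and none of the 8 separated the genotypes in all 4 tissues. Genes were tested only where all 3 arrays of a genotype were well above background. With dim probes included, 14 of the 21368 genes met the rule.

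The margin by which the genes met the rule was small. It is given here as the gap between the nearest KI and WT mouse in the third of the 3 tissues. The gap was 0.15 on the log2 scale for Lrrc51, 0.0687 for Nupr1l, 0.0288 for Crk, 0.0235 for Zfp784, 0.0136 for Grb14, 0.0130 for Zfp781, 0.00628 for Haus2 and 0.000369 for Lama2. Cyp26b1, which also met the rule, had a wider gap of 0.651. The nearest gene outside the rule was Zfp976, which overlapped by 0.0104, and 18 genes missed the rule by less than 0.05. In the 24 cases where a gene separated the genotypes, the means differed by 1.08-fold to 1.71-fold.

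**Figure D1:**
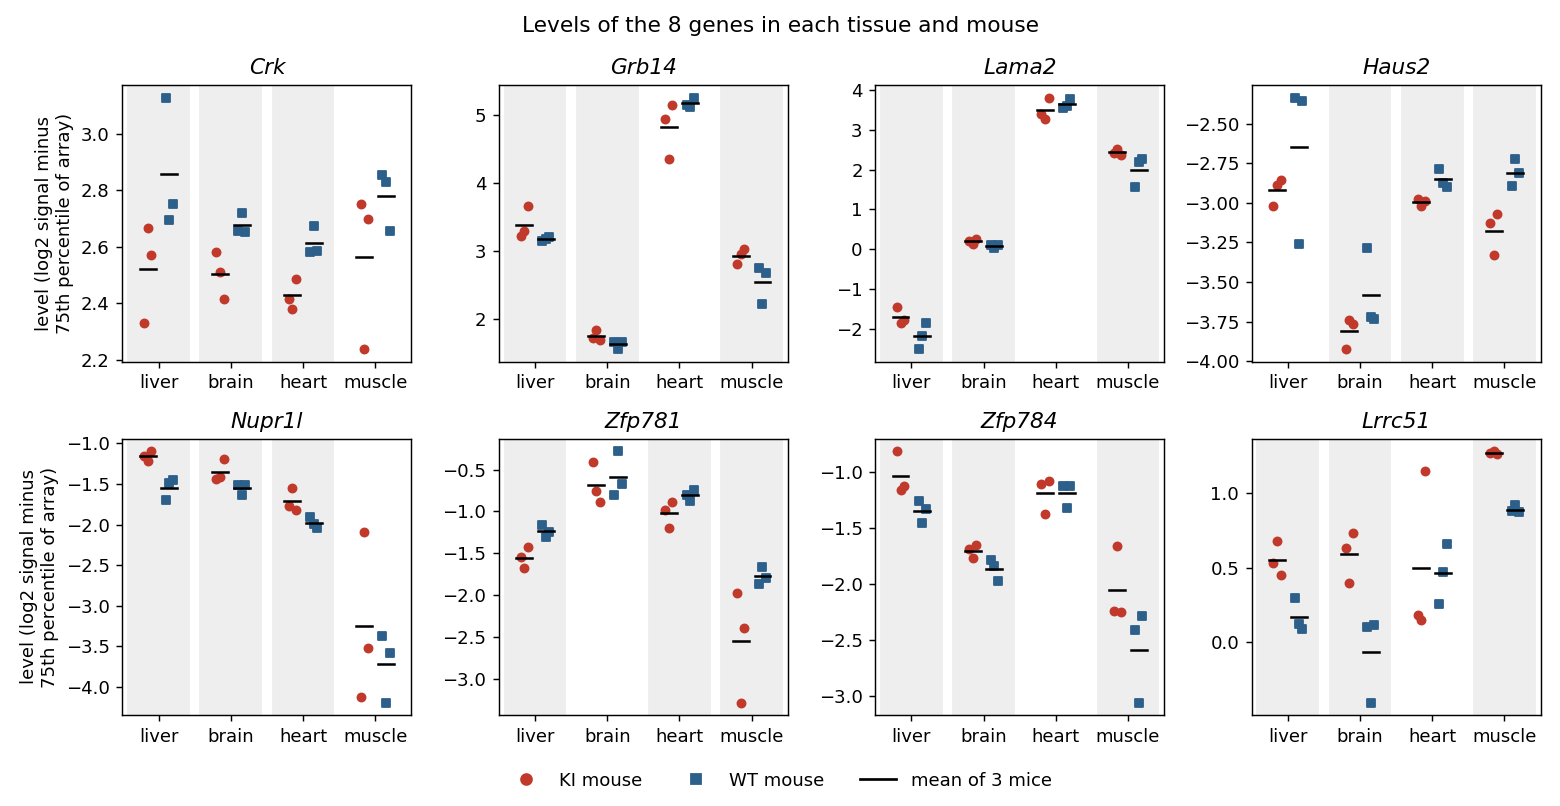
Level of each of the 8 genes (log2 signal minus the 75th percentile of the array, vertical axis) in the 4 tissues, with 1 point per mouse, KI as circles and WT as squares, and a bar at the mean of 3 mice. Grey bands mark the tissues where the genotypes did not overlap, 3 for each gene by its selection, and the differences between tissues were larger than those between genotypes for most genes, Crk excepted.

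Crk encodes an adaptor that joins tyrosine-phosphorylated proteins, through its SH2 domain, to exchange factors for small GTPases. It was lower in KI mice in liver, brain and heart. Values are listed in the order A, B, C for KI and D, E, F for WT throughout. Crk stood at 2.33, 2.67 and 2.57 in KI livers, against 3.13, 2.70 and 2.75 in WT livers. Among the brains, those of KI mice stood at 2.58, 2.51 and 2.41 and those of WT mice at 2.65, 2.72 and 2.65. Its values were 2.41, 2.38 and 2.49 in KI hearts, against 2.58, 2.67 and 2.58 in WT hearts. The means fell by 0.34 (liver), 0.17 (brain) and 0.19 (heart), and the nearest KI and WT livers, those of mice B and E, were 0.0288 apart. In muscle the levels of 2.75, 2.24 and 2.70 in KI overlapped those of 2.86, 2.83 and 2.66 in WT mice, although the mean difference was also negative, at -0.22. Without the muscle of mouse B, which carried mammary transcripts, that difference was -0.05. Without WT mouse D the liver difference was -0.20.

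Crk had a pair of other probes, and these gave a negative difference in all 4 tissues. The probe with the larger changes had differences of -0.52 (liver), -0.26 (brain), -0.24 (heart) and -0.61 (muscle), and the other had -0.19, -0.15, -0.10 and -0.52 in this order. The first separated the genotypes in liver and the other in muscle, so that neither met the rule. Within slides, the Crk difference was -0.07 and -0.22 in brain and -0.23 and -0.10 in heart.

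Grb14 encodes an adaptor that binds the activated insulin receptor and inhibits its kinase. It was higher in KI mice in liver, brain and muscle and lower on average in heart. Livers of KI mice measured 3.21, 3.29 and 3.65, whereas WT livers measured 3.14, 3.17 and 3.20. KI brains stood at 1.71, 1.83 and 1.69, and WT brains at 1.66, 1.55 and 1.66. Among the muscles, those of KI mice stood at 2.81, 2.95 and 3.02 and those of WT mice at 2.75, 2.21 and 2.67. The differences were 0.21 (liver), 0.12 (brain) and 0.38 (muscle). In liver the WT mice were close together, with an SD of 0.03, and the KI mice were not, with an SD of 0.23 (n = 3 each).

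Several of the Grb14 differences leaned on 1 mouse. Without KI mouse C, whose liver carried muscle transcripts, the liver difference was 0.08. Without KI mouse B the brain difference was 0.07, and without WT mouse E the muscle difference was 0.22. In heart, where the gene was most abundant, KI mice had 4.94, 4.35 and 5.14 and WT mice 5.14, 5.11 and 5.25, a mean difference of -0.35 with overlap. Under some other scalings, given below, all KI hearts lay below all WT hearts for this gene. Within slides the heart difference was -0.48 and -0.11, and the brain difference was 0.05 and 0.15. Grb14 had no other probe.

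Genes that work with these adaptors were examined as a list of 25: insulin receptor and its substrates, further SH2 adaptors, and partners of Crk such as Dock1 and Rapgef1. None of them passed the limma adjusted threshold in any tissue, as was the case for all genes (0% of the genes tested in each tissue). At an unadjusted limma p under 0.05, 1 gene of 24 was higher and 1 lower in liver, and 0 in brain, heart and muscle, against 11.7%, 0.79%, 1.65% and 0.851% of all genes tested in liver, brain, heart and muscle. Without overlap, 3 of the list lay above and 2 below WT in liver, 1 and 3 in brain, and 0 and 3 in heart. In muscle there were 0. The all-gene shares were 12.2% and 7.5% (liver), 1.28% and 1.57% (brain), 1.8% and 3.22% (heart), and 2.17% and 1.37% (muscle). The median difference of the list was 0.07 (liver), -0.03 (brain), -0.11 (heart) and 0.02 (muscle), beside all-gene medians of 0.04, -0.03, -0.05 and 0.02. Gab1, a docking protein for Crk and Grb2, had the smallest p in liver, with a difference of -0.42 (limma adjusted p = 0.402). Crkl, the closest relative of Crk, separated the genotypes in liver, where it was lower by a mean of -0.20, and overlapped in the other tissues, with differences of -0.07, -0.05 and 0.03 in brain, heart and muscle. Grb10, the closest relative of Grb14, had differences of 0.16 in brain, -0.22 in heart and 0.05 in muscle, with overlap in each.

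Lama2 encodes the alpha 2 chain of laminin, which links the basement membrane of muscle fibres and Schwann cells to dystroglycan, and its loss causes a congenital muscular dystrophy. It was higher in KI mice in liver, brain and muscle. Its values were -1.46, -1.86 and -1.77 in KI livers, against -2.51, -2.18 and -1.86 in WT livers. Brains of KI mice measured 0.20, 0.14 and 0.25, whereas WT brains measured 0.10, 0.02 and 0.12. KI muscles stood at 2.42, 2.52 and 2.37, and WT muscles at 1.56, 2.18 and 2.26. KI mouse B and WT mouse F differed by 0.000369 in liver, the smallest margin among the 8 genes. The mean differences were 0.49, 0.12 and 0.44 in liver, brain and muscle. Without WT mouse D, which was lowest in liver and muscle, they were 0.32 in liver and 0.22 in muscle.

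In heart, where Lama2 was most abundant, KI values of 3.39, 3.28 and 3.81 overlapped WT values of 3.56, 3.60 and 3.78, a difference of -0.15. The other Lama2 probe gave 0.80 (liver), 0.13 (brain), -0.28 (heart) and 0.44 (muscle), with the same sign as the first in every tissue. It separated the genotypes in liver and muscle but not in brain. In liver its KI levels were -2.49, -2.63 and -2.11 and its WT levels -3.36, -3.42 and -2.83, a wider gap than with the first probe. Within slides the brain difference of the first probe was 0.10 and 0.13.

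Other matrix genes and markers of other cells were examined in liver, where separations were most common, and no matrix gene passed the adjusted limma threshold. Of 22 tested genes of a list of laminin chains and the dystroglycan complex, 5 were higher in KI livers at an unadjusted limma p under 0.05 and 0 lower, where 11.7% of all genes had such a p in either direction. In liver 8 lay above and 1 below WT without overlap, beside 12.2% and 7.5% of all genes. Their median difference was 0.20. Lamb1 had 0.49 (limma adjusted p = 0.374) and Lama1 0.48 (limma adjusted p = 0.421), and 0 genes of the list passed the adjusted threshold. In brain, heart and muscle 0 genes of this list had an unadjusted p under 0.05, beside 0.79%, 1.65% and 0.851% of all genes. The medians of the list there were 0.03, -0.13 and 0.07. Fibroblast markers, 8 genes, had mean levels of 1.22, 0.93 and 1.31 in KI and 0.58, 0.51 and 0.64 in WT livers, with 5 of the 8 separated, each higher in KI, beside 12.2% of all genes. Macrophage markers, also 8 genes, had mean levels of 2.58, 2.41 and 2.59 in KI and 2.10, 1.94 and 1.87 in WT livers, and all 8 separated the genotypes, each higher in KI, beside the same 12.2%. Of all marker lists examined, these were the ones whose mean separated the genotypes in liver. There, 1 of 8 endothelial, 1 of 8 adipocyte, 1 of 5 erythroid and 0 of 8 lymphocyte markers lay above WT without overlap. Of 10 hepatocyte markers, 0 lay above and 1 below. In brain, heart and muscle the fibroblast mean overlapped, with differences of 0.43, 0.20 and 0.08. The marker lists were not tested. All markers of the fibroblast and macrophage lists were well above background in liver. In whole tissue, more cells of a type and more RNA per cell cannot be told apart, and the part of either cell type in the liver differences of the 8 genes was not tested.

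Haus2 encodes a subunit of augmin, which brings gamma-tubulin to spindle microtubules. It was lower in KI mice in brain, heart and muscle. Among the brains, those of KI mice stood at -3.92, -3.74 and -3.76 and those of WT mice at -3.28, -3.72 and -3.73. Its values were -2.98, -3.02 and -2.99 in KI hearts, against -2.79, -2.87 and -2.90 in WT hearts. Muscles of KI mice measured -3.13, -3.33 and -3.07, whereas WT muscles measured -2.90, -2.72 and -2.81. The means fell by 0.23 in brain, 0.14 in heart and 0.36 in muscle. The brain difference came mostly from WT mouse D and was -0.08 without it, with -0.64 on the slide that held mice A and D and -0.02 on the other. In heart the within-slide differences were -0.17 and -0.09. In liver the levels of -3.02, -2.88 and -2.86 in KI lay between those of WT mice, at -2.34, -3.26 and -2.36.

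Haus2 had no other probe. None of 17 augmin and gamma-tubulin genes passed the limma adjusted threshold in any tissue. In brain 1 of 17 had an unadjusted p under 0.05 (Tubgcp5, -0.34, limma adjusted p = 1), beside 0.79% of all genes. In heart and muscle 0 had one, beside 1.65% and 0.851% of all genes. In liver 2 of 16 had one, both higher in KI, led by Haus4 at 0.34 (limma adjusted p = 0.402), beside 11.7% of all genes. Of the other augmin subunits, Haus5 separated the genotypes in heart, at a difference of -0.10, and Haus4 and Haus8 separated in liver in the opposite direction from the Haus2 mean, at 0.34 and 0.23. Of all genes, 3.22% lay below WT in heart and 12.2% above in liver.

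Nupr1l, also called Nupr2, is a relative of Nupr1, a small chromatin-associated protein induced by cell stress. It was higher in KI mice in liver, brain and heart. KI livers stood at -1.15, -1.21 and -1.09, and WT livers at -1.70, -1.48 and -1.45. Among the brains, those of KI mice stood at -1.44, -1.41 and -1.20 and those of WT mice at -1.51, -1.64 and -1.51. Its values were -1.77, -1.55 and -1.82 in KI hearts, against -1.91, -1.99 and -2.05 in WT hearts. The differences were 0.39 (liver), 0.20 (brain) and 0.27 (heart), and the gap between the groups was never under 0.0687. Without KI mouse C, whose brain carried liver transcripts, the brain difference was 0.13. Within slides it was 0.07 and 0.27 in brain and 0.29 and 0.23 in heart.

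Muscle was the tissue with the least Nupr1l, and the probe was well above background on 2 KI and 2 WT arrays there. KI muscles stood at -4.13, -2.09 and -3.53, against -3.38, -4.20 and -3.58 in WT muscles, with the muscle of mouse B far above the rest. The muscle difference was 0.47 with that array and -0.11 without it. The other Nupr1l probe was dimmer. It gave 0.24 (liver), 0.17 (brain), 0.66 (heart) and 1.07 (muscle), and separated the genotypes in brain and muscle. It was well above background on 3 of 6 heart arrays and on 0 muscle arrays, so that the heart and muscle values are uncertain.

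Nupr1 itself had differences of 0.51, 0.19, 0.66 and 0.26 in liver, brain, heart and muscle, with overlapping genotypes in each (limma adjusted p between 0.512 and 1). Of 14 genes of Nupr1 and the stress response, 0 passed the adjusted limma threshold in any tissue. At an unadjusted p under 0.05, 1 was lower in heart (Chac1, -0.52, limma adjusted p = 0.971), and 0 in the other tissues. Of all genes, 1.65% had such a p in heart, 11.7% in liver, 0.79% in brain and 0.851% in muscle. The medians of this list were 0.02 (liver), -0.03 (brain), 0.01 (heart) and 0.13 (muscle).

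The levels of Nupr1l followed those of macrophage genes across the arrays. The gene most like it over 24 arrays was Tyrobp, at r = 0.970, and the next was Aif1, at r = 0.962, out of 18083 genes. Both are markers of macrophages and microglia and belong to the macrophage list used here. Against the mean of the 8 macrophage markers, Nupr1l had r = 0.877 over 24 arrays and r = 0.833 after the mean of each tissue was taken away. Without the muscle of mouse B the latter was 0.874 over 23 arrays. Points of the same mouse and tissue share an array and its scaling, so these values describe likeness only. Genotype means were not taken away, so the genotype differences by which the 8 genes were chosen are part of every r given here. Zfp784 also followed the macrophage list, with r = 0.914 over 24 arrays, 0.657 after tissue means were taken away and 0.521 without the muscle of mouse B. For the other 6 genes r over 24 arrays lay between -0.503 for Lrrc51 and 0.407 for Grb14. After tissue means were taken away, r was -0.654 for Zfp781 (-0.506 without the muscle of mouse B) and -0.526 for Crk (-0.351 without it), and between -0.325 and 0.335 for the other 4. The mean of the macrophage list overlapped between genotypes in brain, heart and muscle, with differences of 0.07, 0.20 and 0.33, and was separated in liver, at 0.56. Over 24 arrays the skeletal muscle list had r = -0.893 with Nupr1l and -0.751 with Zfp784. Both genes and the macrophage list had their lowest levels in muscle.

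**Figure D2:**
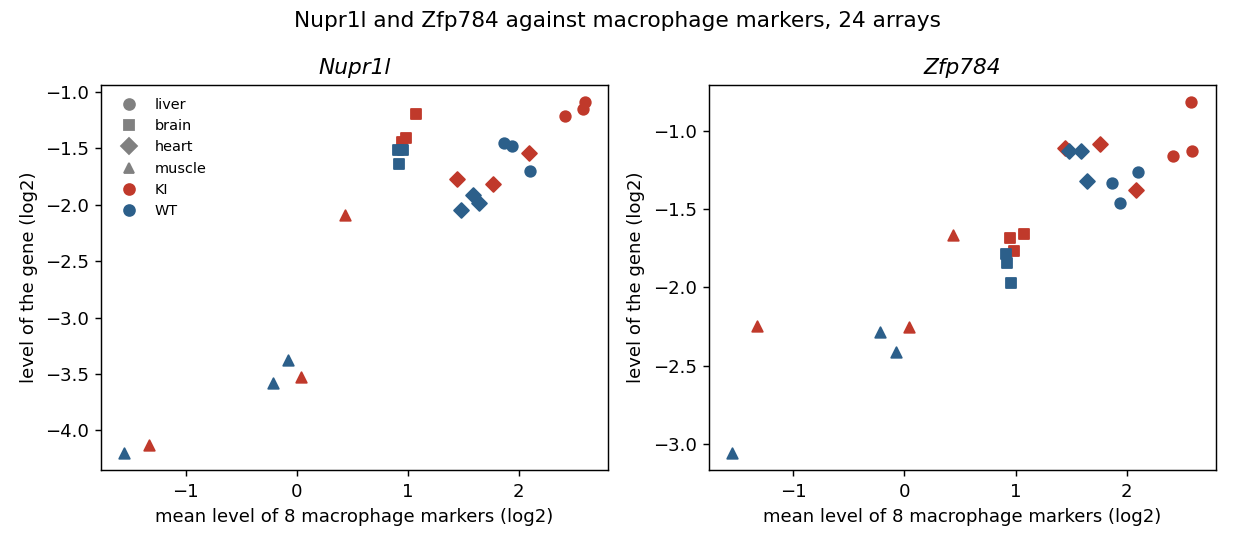
Level of Nupr1l (left) and Zfp784 (right) on the vertical axis against the mean level of 8 macrophage markers on the horizontal axis, both on the log2 scale, with 1 point for each of 24 arrays, shaped by tissue and coloured by genotype. Muscle arrays lie lowest and KI livers highest on the horizontal axis, and r is 0.877 for Nupr1l and 0.914 for Zfp784.

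Zfp781 encodes a zinc finger protein. It was lower in KI mice in liver, heart and muscle. Livers of KI mice measured -1.55, -1.68 and -1.43, whereas WT livers measured -1.16, -1.30 and -1.25. KI hearts stood at -0.98, -1.20 and -0.89, and WT hearts at -0.80, -0.87 and -0.74. Among the muscles, those of KI mice stood at -1.97, -3.29 and -2.39 and those of WT mice at -1.87, -1.66 and -1.80. The means fell by 0.31 in liver, 0.22 in heart and 0.77 in muscle, the last being the widest mean difference of any of the 8 genes. KI mouse B was lowest in all 3 tissues, and without it the difference was -0.40 in muscle and -0.13 in heart. The muscle array of this mouse is the array that carried mammary transcripts. In brain the levels of -0.40, -0.76 and -0.89 in KI overlapped those of -0.81, -0.28 and -0.67 in WT mice, and the difference took opposite signs on the slides, at 0.40 and -0.35. In heart the within-slide differences were -0.25 and -0.15.

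The other Zfp781 probe did not share the heart pattern. It gave -0.24 (liver), 0.13 (brain), 0.07 (heart) and -1.37 (muscle), and muscle was the tissue where it separated the genotypes. It was well above background on 2 of the 6 muscle arrays. The neighbours Zfp433 and Zfp873, which also encode zinc finger proteins, had negative differences wherever they were tested. Zfp433 gave -0.49 (liver, limma adjusted p = 0.422), -0.11 (brain), -0.18 (heart) and -0.50 (muscle), and Zfp873 gave -0.36 (liver), -0.21 (brain) and -0.20 (heart). The other neighbours did not all share this sign. AU041133 gave 0.05 (liver), -0.14 (brain), -0.32 (heart) and 0.01 (muscle), and Gm10778 gave -0.09, -0.06, -0.03 and -0.58 in this order. The zinc finger genes on this stretch of chromosome 10 are related in sequence, so shared signal between probes was not tested.

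Zfp784 encodes another zinc finger protein, and it was higher in KI mice in liver, brain and muscle. Its values were -0.82, -1.16 and -1.13 in KI livers, against -1.26, -1.46 and -1.33 in WT livers. Brains of KI mice measured -1.69, -1.77 and -1.66, whereas WT brains measured -1.79, -1.84 and -1.97. KI muscles stood at -2.24, -1.67 and -2.25, and WT muscles at -2.41, -3.06 and -2.28. The differences were 0.31 (liver), 0.17 (brain) and 0.53 (muscle). In muscle the groups were set apart by the high KI mouse B and the low WT mouse E, and the difference was 0.34 without B and 0.29 without E. The muscle of mouse B is the array that carried mammary transcripts. Without KI mouse A the liver difference was 0.21. In heart there was no difference in the means, at -1.19 in both genotypes, and KI values of -1.11, -1.38 and -1.08 interleaved with WT values of -1.13, -1.32 and -1.13. Within slides the brain difference was 0.10 and 0.20. Zfp784 had no other probe.

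Lrrc51 encodes a leucine-rich repeat protein, and in primates it is joined with the neighbouring gene Tomt, known from inherited deafness. It had the widest margin of the 8 genes and was higher in KI mice in liver, brain and muscle. Among the livers, those of KI mice stood at 0.53, 0.68 and 0.45 and those of WT mice at 0.30, 0.12 and 0.09. Its values were 0.63, 0.40 and 0.74 in KI brains, against 0.10, -0.41 and 0.12 in WT brains. Muscles of KI mice measured 1.27, 1.28 and 1.27, whereas WT muscles measured 0.88, 0.92 and 0.87. Muscle was the tissue of least spread, with an SD of 0.01 in KI and 0.03 in WT mice (n = 3 each) and a gap of 0.34 between the groups. The differences were 0.38 (liver), 0.65 (brain) and 0.38 (muscle), and leaving out any mouse moved none of them by more than 1.5 times.

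The heart gave no such pattern for Lrrc51. KI hearts stood at 0.18, 0.15 and 1.15, against 0.26, 0.47 and 0.66 in WT hearts, with KI mouse C above and the other KI mice below all WT mice. The difference there was 0.03, and within slides it was -0.20 and 0.49. In brain the within-slide differences were 0.53 and 0.71. The other Lrrc51 probe was assigned to another transcript of the gene. It gave 0.76 in brain, where its KI levels of -1.64, -1.55 and -1.75 lay above WT levels of -2.54, -2.22 and -2.46, and 0.03 in liver, 0.22 in heart and 0.25 in muscle, with overlap in each. Brain was therefore the tissue in which the genotypes were apart with both probes.

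Of the 8 genes, 5 had further probes, 6 probes in all. In the 18 combinations of such a probe with a tissue where the gene was separated, the sign was the same in 17 and the genotypes were again apart in 6. In 14 of the 18 all 6 arrays were well above background, and 13 of these had the same sign. The exception in sign was Zfp781 in heart. No other probe met the rule of 3 tissues.

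**Figure D3:**
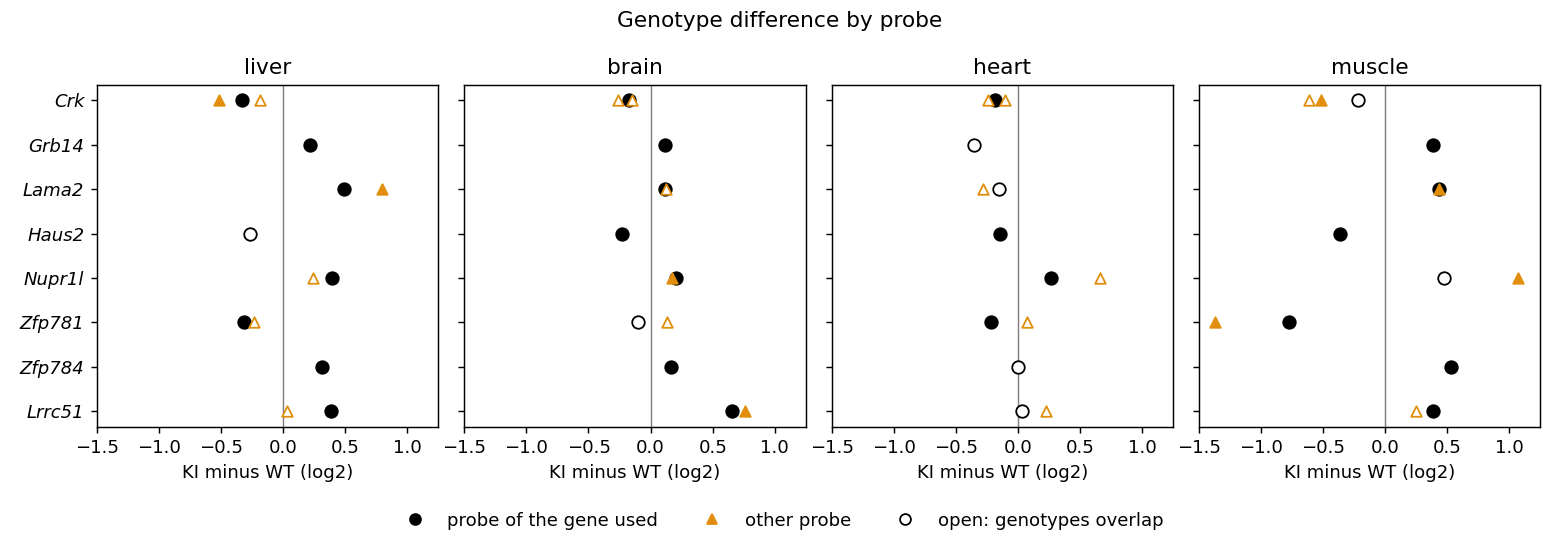
Difference between KI and WT means (log2, horizontal axis) for each gene in the 4 tissues, with black circles for the probe that stood for the gene and orange triangles for its other probes, filled where the genotypes did not overlap and open where they did. Of the 18 other-probe values in tissues where a gene was separated, 17 lie on the same side of 0 as the gene.

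The separations depended on how the arrays were scaled. With the percentile taken over probes well above background on all arrays, 3 of the 8 genes still met the rule (Nupr1l, Zfp781 and Lrrc51). After quantile normalization there were 3 (Lama2, Nupr1l and Lrrc51), after normexp background correction 4 (those 3 and Crk), and with the deposited scores 4 (Crk, Lama2, Nupr1l and Zfp781). With the mean of all probes of a gene in place of the brightest, 3 met it, and those were the 3 genes with 1 probe. Their values are the same in this setting, and no gene with further probes met the rule in it. Nupr1l met the rule in 7 of 8 alternative settings, Lrrc51 in 6, Crk in 5, Grb14, Lama2 and Zfp781 in 4, and Haus2 and Zfp784 in 3. For Grb14, Haus2 and Zfp784 the count includes the mean of all probes, which could not change their result. In heart, Grb14 separated the genotypes against the direction of the rule after quantile normalization, after normexp correction and with the deposited scores. With the last 2 of these, heart was the only tissue where it separated them. The number of genes on the whole array that met the rule was between 5 and 10 in these settings, against 9 as used. Under 7 other scalings, 0 of 168 differences in tissues where a gene was separated changed sign and 6 moved by more than the spread between mice. These cases were chosen as separated, and another percentile shifts all genes of an array alike. The kept sign was therefore likely beforehand and lends the genes no weight. Leaving out a mouse cannot turn the sign of a separated value, but 13 of 144 such values moved by more than 1.5 times.

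**Figure D4:**
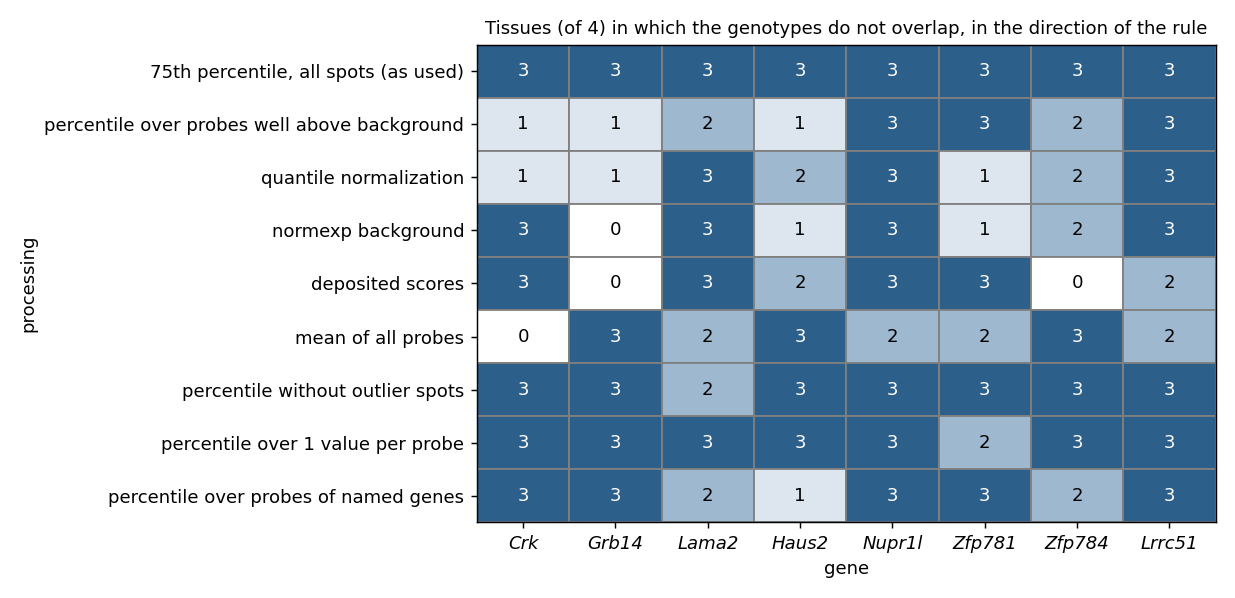
Number of tissues in which the genotypes did not overlap in the direction of the rule, for each of the 8 genes (columns) under each processing (rows), with darker cells for more tissues. The top row is the processing behind the selection, with 3 tissues for every gene, and Nupr1l keeps 3 tissues in 7 of the 8 rows below it. Separations against the direction of the rule, as for Grb14 in heart, are not counted.

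Tissue levels were not used by the selection and were tested. Of 17299 genes tested over 24 arrays with genotype as a covariate, 97.9% differed between tissues by the limma F-test, and 7 of the 8 genes did. Crk was the exception, with means over 6 mice of 2.69 ± 0.26 (liver), 2.59 ± 0.11 (brain), 2.52 ± 0.11 (heart) and 2.67 ± 0.23 (muscle; SD, n = 6; limma F-test, adjusted p = 0.274). Its largest tissue difference, liver minus heart, was 0.17 (SE 0.09). After quantile normalization Crk passed too (limma adjusted p = 0.0044).

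Lama2 and Grb14 varied most. Lama2 had 3.57 ± 0.21 in heart, 2.22 ± 0.34 in muscle, 0.14 ± 0.08 in brain and -1.94 ± 0.36 in liver (SD, n = 6 each), and each step in this order passed (limma, largest adjusted p = 2.0e-08). Grb14 had 4.99 ± 0.33 in heart, 3.28 ± 0.19 in liver, 2.73 ± 0.29 in muscle and 1.69 ± 0.09 in brain (SD, n = 6 each), with every pair apart (limma, largest adjusted p = 0.0015, for liver against muscle). For both genes heart, the tissue of highest level, was the tissue in which KI did not exceed WT.

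The nuclear proteins and the spindle gene had narrower ranges. Nupr1l was at -1.35 ± 0.23 (liver), -1.45 ± 0.15 (brain), -1.85 ± 0.18 (heart) and -3.48 ± 0.76 (muscle; SD, n = 6 each), where liver and brain (limma adjusted p = 0.668) and brain and heart (limma adjusted p = 0.0978) did not differ beyond their spread. Zfp781 was highest in brain, at -0.63 ± 0.24, followed by heart at -0.91 ± 0.16, liver at -1.40 ± 0.20 and muscle at -2.17 ± 0.60 (SD, n = 6 each). Its brain and heart levels did not differ beyond their spread (limma adjusted p = 0.140). Zfp784 was at -1.19 in both heart and liver (limma adjusted p = 0.984), at -1.79 ± 0.11 in brain and at -2.32 ± 0.45 in muscle. Haus2 was lowest in brain, at -3.69 ± 0.21, and its liver, heart and muscle levels of -2.79, -2.92 and -2.99 did not differ beyond their spread (limma adjusted p between 0.132 and 0.621). Lrrc51 was highest in muscle, at 1.08 ± 0.21, and its heart, liver and brain levels of 0.48, 0.36 and 0.26 did not differ beyond their spread (limma adjusted p between 0.198 and 0.552).

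The genes of most similar pattern differed from gene to gene, out of 18083 compared over 24 arrays. For Lama2 these were Rbp7 (r = 0.991) and Sspn (r = 0.989), the latter encoding sarcospan of the dystroglycan complex. For Grb14 they were Gmnn (r = 0.990) and Trmt2b (r = 0.972), for Haus2 Gpatch2 (r = 0.899) and Insr (r = 0.889), and for Zfp784 Leprot (r = 0.929) and Rfwd3 (r = 0.927). Zfp781 was most like Zfp938 (r = 0.925) and Zfp157 (r = 0.891), both zinc finger genes. Crk was most like Cul1 (r = 0.821) and Lrrc51 most like Csnk1g2 (r = 0.841), so these patterns, with the smallest tissue ranges, were followed least closely. After the mean of each tissue and genotype was taken away, Nupr1l and Zfp781 opposed each other (r = -0.875 over 24 arrays), a value to which the muscle of KI mouse B contributed with the highest muscle level of the first and the lowest of the other.

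The genes lay on chromosomes 2 (Grb14 and Haus2), 5 (Nupr1l), 7 (Lrrc51 and Zfp784), 10 (Lama2 and Zfp781) and 11 (Crk), and Terf2ip lies on chromosome 8. None of the 8 genes shared a chromosome with the edited gene. Of 32 neighbours, the nearest genes with a probe on both sides of each gene, 0 passed the adjusted limma threshold in any tissue. In liver 3 were higher and 1 lower at an unadjusted p under 0.05 among 27 tested, beside 11.7% of all genes. The smallest p was that of Ccdc106, which lies near Zfp784, at a difference of 0.89 (limma adjusted p = 0.358). In heart 1 of 30 was lower (Tomt, beside Lrrc51, -0.66, limma adjusted p = 0.971, where 1.65% of all genes had such a p). In brain and muscle there were 0, beside 0.79% and 0.851% of all genes. In liver the neighbours higher in KI also included Fign, next to Grb14, at 0.43, and Numa1, next to Lrrc51, at 0.45.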

How the data were processed

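Per the labels, Cy3-labelled RNA of 24 samples was hybridised to 1-colour Agilent mouse arrays. The authors extracted intensities with Feature Extraction 12.0.3.1 (per the file headers), and the deposited processed signal intensity, corrected for background by that program, was used here. The deposited median spot and background intensities served for the normexp alternative (offset 50). The deposited series table of scores, which matched z-scores of the log2 signal within each array, was an alternative.

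Each array had 59305 spots that were not controls. Values were log2 of the signal minus the 75th percentile of those spots, with spots marked as outliers (121 to 347 per array) included in the percentile and left out of the probe means. Probe names came from matching their RefSeq accessions to GRCm38.p6 genes (a match for 99.0% of 26732 with a curated mRNA accession). Testing in a tissue required all 3 arrays of a genotype to be well above background. Fits with limma 3.58.1 (R 4.3.3; two-sided moderated tests, Benjamini-Hochberg, threshold 0.05) compared tissues over 24 arrays and related and neighbouring genes within each tissue. In data simulated for liver over 14074 genes, 54% of changes of 1 (log2) were recovered. Smaller changes, such as most of those reported here, were not simulated. p-values measure the spread between mice. The 8 genes, the gene lists and the alternatives were chosen with earlier results of these data known, and 3 other percentiles were added after seeing the data. Named genes were the 8, Terf2ip, relatives of the 8, the listed or neighbouring gene of smallest p per tissue, and the 2 genes of most similar pattern; others named were chosen after their values were seen. A gene of the laminin list is not reported here by name. The number of sample columns left without a sample was 0.

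Arrays of the same mouse share its number across tissues, so the numbers pair arrays. Deviations from group means over 12220 genes had a mean r of 0.0189 for the same mouse and -0.0084 for different mice of a genotype. Arrays lay on 3 slides: all livers on 1, all muscles on another, and brains and hearts on 2 each with both genotypes on each, where the heart split followed age.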

Additional observations from a re-analysis of the deposited data

Results flagged for a closer look

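In 3 genes related to or beside the 8, all KI mice lay on one side of all WT mice in a tissue and on the other side in another tissue. Dock1, an exchange factor that Crk recruits, was higher in KI livers (0.29) and lower in KI hearts (-0.14), 0.43 apart on the log2 scale. Lamc1, the laminin gamma 1 chain, was higher in KI livers (0.21) and lower in KI hearts (-0.08), 0.29 apart. Zfp580, the neighbour of Zfp784, was higher in KI muscles (0.15) and lower in KI livers (-0.22), 0.37 apart. The difference between tissues was not tested. Among all genes, 293 separated the genotypes in at least 2 tissues, and 100 of these did so in opposite directions. Dock1, Lamc1 and Zfp580 were chosen after their values were seen. With 3 mice per group, no search for single far samples was made.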

How the results depend on the processing

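The count of 8 genes meeting the rule became 3 with the percentile over probes well above background, 3 with quantile normalization, 4 with normexp background, 4 with the deposited scores, 3 with the mean of all probes and 5 with the percentile over probes of named genes. The count was 7 both with outlier spots left out of the percentile and with 1 value per probe. The 3 genes under the mean of all probes were those with 1 probe, for which that setting changes nothing. Leaving out a mouse gave a count of 8 each time, which follows from the rule, since fewer mice cannot add an overlap. Without the 3 arrays that carried transcripts of another tissue it was also 8, for the same reason. The cause was not tested.

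With the mouse as a replicate block, 7 of the 8 genes differed between tissues, as without it, and no listed or neighbouring gene passed in any tissue (0 in each), so the pairing changed no call. Quantile normalization gave 8. Related and neighbouring genes passing the adjusted limma threshold were 0 in every tissue under every alternative. In liver, 9 of 82 related genes had an unadjusted p under 0.05 (11.7% of all genes did), and leaving out a mouse gave between 3 and 15. Array signal limits Nupr1l in muscle, where the probe was not well above background on 2 of 6 arrays.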

Other observations

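Shelterin genes gave no separation that spread over tissues. Of 7 shelterin genes, 6 were tested in each tissue, and 0 passed the adjusted limma threshold or had an unadjusted p under 0.05 in any of them. In liver 2 lay above and 1 below WT without overlap, beside 12.2% and 7.5% of all genes, and in brain, heart and muscle 0 did, where 1.28% to 3.22% of all genes lay on a given side. Tinf2 had the smallest p in liver, at a difference of -0.26 (limma adjusted p = 0.450).

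The mice that set the margin of the rule were counted over the cases of separation, which come from 8 genes in the same 6 mice. No such counts were made over all genes, so the counts below are not shown to be a trait of these genes. In the 24 cases where a gene separated the genotypes, WT mouse F was the WT mouse nearest to the KI mice in 12, D in 8 and E in 4, and KI mouse C was the nearest KI mouse in 10, B in 8 and A in 6. Mice C and F were the 14 month old mice, and the brain and liver of C carried transcripts of another tissue. The difference between C and F was smaller than that between the 15 month old mice of each genotype in 18 of the 24 cases. In liver, Lama2 differed by 0.09 between the 14 month old mice and by 0.68 between the means of the 15 month old mice, and in muscle Zfp784 differed by 0.03 and 0.78. For Lrrc51 in brain the values were 0.62 and 0.67. In the other 6 cases the 14 month old mice were further apart, among them Grb14 in liver (0.45 and 0.10), Zfp784 in brain (0.32 and 0.09) and Nupr1l in brain (0.32 and 0.15). Each genotype had 1 mouse of 14 months, so age and mouse cannot be told apart.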
